A study of Mus musculus with 2 samples.

Results

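A set of 10 genes that move, store or release iron or break down haem was followed across liver cell types: Slc40a1, Hmox1, Blvrb, Slc11a1, Fth1, Ftl1, Tfrc, Trf, Cp and Hamp. The genes were chosen by name as a list, and all 10 had a row in both count tables, of 21722 genes listed in either. scRNA-seq of liver non-parenchymal cells (NPCs) was done on 1 normal and 1 fibrotic C57BL/6 mouse, both male and 8 weeks old. The normal mouse (library Q, the normal library) received olive oil, and the fibrotic mouse (library F, the fibrosis library) received CCl4 diluted to 15% in the same oil, at a dose of 0.6 µl for each g of mouse. Both were injected intraperitoneally 2 times a week for 6 weeks, and cells were taken 48 hours after the last injection. CCl4 is a hepatocyte toxin, and its repeated use is a standard model of liver fibrosis. Hepatocytes were spun out of the suspension at low speed, so the hepatocyte-like cells described here are those that remained. With 1 mouse per group, no difference between the mice has a replicate check, and mouse, treatment and library cannot be told apart. Intervals below are exact 95% intervals that cover counting error only.

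Macrophages of the liver and spleen take up old red cells and free the iron of their haem. Haem oxygenase 1 (Hmox1) opens the haem ring, biliverdin reductase B (Blvrb) reduces flavins and the beta form of biliverdin (the alpha form, which haem oxygenase makes, is the substrate of Blvra), and iron leaves the cell through ferroportin (Slc40a1), the known cellular iron exporter. Iron that stays is stored in ferritin, a shell built of heavy (Fth1) and light (Ftl1) chains. Transferrin (Trf) carries iron in plasma and enters cells through the transferrin receptor (Tfrc), ceruloplasmin (Cp) oxidises iron on export, Slc11a1 moves iron out of the phagosome, and hepcidin (Hamp), a hepatocyte hormone, binds ferroportin and causes its breakdown.

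Several of these transcripts carry an iron-responsive element, a short RNA hairpin bound by the iron-regulatory proteins when iron is scarce. In a 5′ UTR the bound hairpin holds back translation, and in the Tfrc 3′ UTR it protects the transcript. The windows of 27 bases that match the hairpin (C, any 5 bases, CAGTGN and 5 bases that pair with the first 5, G-U pairs allowed, sense strand) are shown because they group the members into storage and export genes with 1 upstream hairpin and an uptake gene with 4 downstream ones. Sequences are from GENCODE M21 transcripts (GRCm38), written as DNA 5′ to 3′ along the transcript, and capitals mark the 6-base loop.
Fth1, 5′ UTR, chr19:9982733-9982759, plus strand: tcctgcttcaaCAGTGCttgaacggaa
Ftl1, 5′ UTR, chr7:45459780-45459806, minus strand: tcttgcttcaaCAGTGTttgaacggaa
Slc40a1, 5′ UTR, chr1:45925466-45925492, minus strand: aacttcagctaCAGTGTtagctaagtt
Tfrc, 3′ UTR, chr16:32631220-32631246, plus strand: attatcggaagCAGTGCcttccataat
Tfrc, 3′ UTR, chr16:32631599-32631625, plus strand: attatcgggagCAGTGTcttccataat
Tfrc, 3′ UTR, chr16:32631664-32631690, plus strand: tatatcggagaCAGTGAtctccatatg
Tfrc, 3′ UTR, chr16:32631711-32631737, plus strand: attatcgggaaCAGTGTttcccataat
Such a hairpin was found in the 5′ UTR of 31 of 20834 genes (0.149%) and in the 3′ UTR of 144 of 21124 genes (0.682%). No match was found in the transcripts of Hmox1, Blvrb, Slc11a1, Trf, Cp or Hamp. UMI counts measure the transcript and carry no information on the translation that the 5′ UTR hairpins act on. They do measure the Tfrc transcript, which its 3′ UTR hairpins act on, but any effect of the hairpins was not tested.

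In GENCODE M21 (GRCm38) the haem and export genes lie apart, with Slc40a1 at chr1:45908068-45926523 (minus), Hmox1 at chr8:75093621-75100589 (plus) and Blvrb at chr7:27447978-27466144 (plus). The phagosomal transporter and the ferritin chains are Slc11a1 at chr1:74375195-74386062 (plus), Fth1 at chr19:9980598-9985098 (plus) and Ftl1 at chr7:45457944-45459884 (minus). The uptake receptor and the plasma proteins are Tfrc at chr16:32608920-32632794 (plus), Trf at chr9:103204001-103230444 (minus), Cp at chr3:19957054-20009145 (plus) and Hamp at chr7:30942368-30944032 (minus). Slc40a1 and Slc11a1 share chromosome 1, and Ftl1, Hamp and Blvrb share chromosome 7.

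The antioxidant response element core, TGACNNNGC on either strand, was also searched in RefSeq promoters (GRCm38.p6, 250 bases before to 50 after the start). None of the 7 members with a promoter in the table (all but Slc40a1, Hmox1 and Trf) held it, against 12.4% of 32851 promoters. This says only that these letters are not in these windows.

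The deposited tables hold 8130 cells and 44062632 UMIs for the normal library and 6437 cells and 53288463 UMIs for the fibrosis library. The median was 4144.5 UMIs per cell (898 to 75847) and 5619 (815 to 116430). After cells of 10% or more mitochondrial UMIs were left out, 7471 and 6132 cells were clustered and named by marker genes, with the 10 members held out of both steps. The libraries shared 15 cell barcodes. The members made up 0.698% of all UMIs in Q and 1.18% in F. A level here is the number of UMIs a gene has in each 10000 UMIs of a cell class. The Kupffer-like class had 226 cells in Q and 264 in F, liver sinusoidal endothelial cell-like (LSEC-like) cells numbered 1735 and 1458, and monocyte/macrophage-like cells numbered 153 and 501. The last class held 43 Trem2/Gpnmb macrophage-like, 65 classical monocyte-like and 45 patrolling monocyte-like cells in the normal library, and 200 Trem2/Gpnmb macrophage-like and 301 classical monocyte-like cells in the fibrosis library. No patrolling cluster was found in the fibrosis library, so this class differs in makeup between the libraries.

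Some of these names held less well against the markers. The 608 erythroid-like cells of the fibrosis library had a median of 984.5 UMIs and 103 haemoglobin UMIs per 10000, against 3237 in the 1125 erythroid-like cells of the normal library. In them 10 of 22 erythroid markers were at 0, among them Klf1, Slc4a1 and Epb42, for which the count of 0 allows up to 0.0339 UMIs per 10000. Only 1 of 22 was at 0 in the normal library. The 19 LSEC markers summed to 117 UMIs per 10000 in this group, above the 105 of its erythroid markers, with hepatocyte markers at 83.1 and Kupffer markers at 85.2. In the normal group these sums were 57.3, 3255, 771 and 13.7. The fibrosis group thus held RNA of several types in like amounts and is called the haemoglobin-led cells below. The 145 hepatocyte-like cells of the fibrosis library had a median of 2038 UMIs against 7767 in the 127 of the normal library. The 43 normal cells that the rule put in the Trem2/Gpnmb macrophage-like class were led by Mmp13, Creb5, Cd207 and Cx3cr1. Their 12 Trem2/Gpnmb markers summed to 23.9 UMIs per 10000, no higher than the 25.1 of normal Kupffer-like cells and far from the 373 of the 200 fibrotic cells. They are therefore called the Mmp13-led cells below, and are not read as the normal counterpart of the fibrotic class.

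The classical monocyte-like class of the fibrosis library joined a pair of unlike clusters. In 108 cells, with a median of 3160.5 UMIs and led by Ace, Vcan and Spn, the 11 classical monocyte markers summed to 71.1 UMIs per 10000 and the Trem2/Gpnmb markers to 28.6. In the other 193 cells, with a median of 9486 UMIs and Ifit1, Cx3cr1 and Ccr2 among their leading genes, these sums were 21.3 and 125, and the 19 Kupffer markers stood at 84.7 against 34.9. In the 65 normal cells of the class the 3 sums were 121, 21.3 and 13.6. The markers of the 193 cells thus go against the class name, and they are called the Ifit1/Ccr2 cluster below and the 108 cells the Vcan/Ace cluster. In the Vcan/Ace cluster the patrolling monocyte markers summed to 37.8, against 10.8 in the normal classical class, and Ace and Spn, among its leading genes, also led the normal patrolling cluster. The values of both clusters stand beside those of the class.

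The Kupffer-like class of the fibrosis library also joined a pair of clusters. In 212 cells, led by Timd4, C6 and Kcna2, the Kupffer markers summed to 375 UMIs per 10000 and Clec4f stood at 46.8, near the 354 and 54.4 of the normal class. In the other 52, led by Lpcat2, Il18bp and AW112010, these were 224 and 12.7, and Timd4 stood at 0.332 against 3.74. They are called the Timd4-high and Timd4-low Kupffer-like clusters, and values are given for each where they differ.

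UMIs of genes that a class should lack were found in every class, and differently in the libraries. In lymphoid-like cells (B, T and NK), which should lack albumin, Alb stood at 102 UMIs per 10000 in Q and 10.9 in F. The 4 Kupffer cell markers Clec4f, Vsig4, Cd5l and Marco summed to 3.11 and 14.9 in the same cells. Hepatocyte RNA was thus more abundant outside its cells in the normal library, and macrophage RNA in the fibrosis library. The ratio in lymphoid-like cells is therefore given for each member, as the background for genes those cells should lack.

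**Figure D1:**
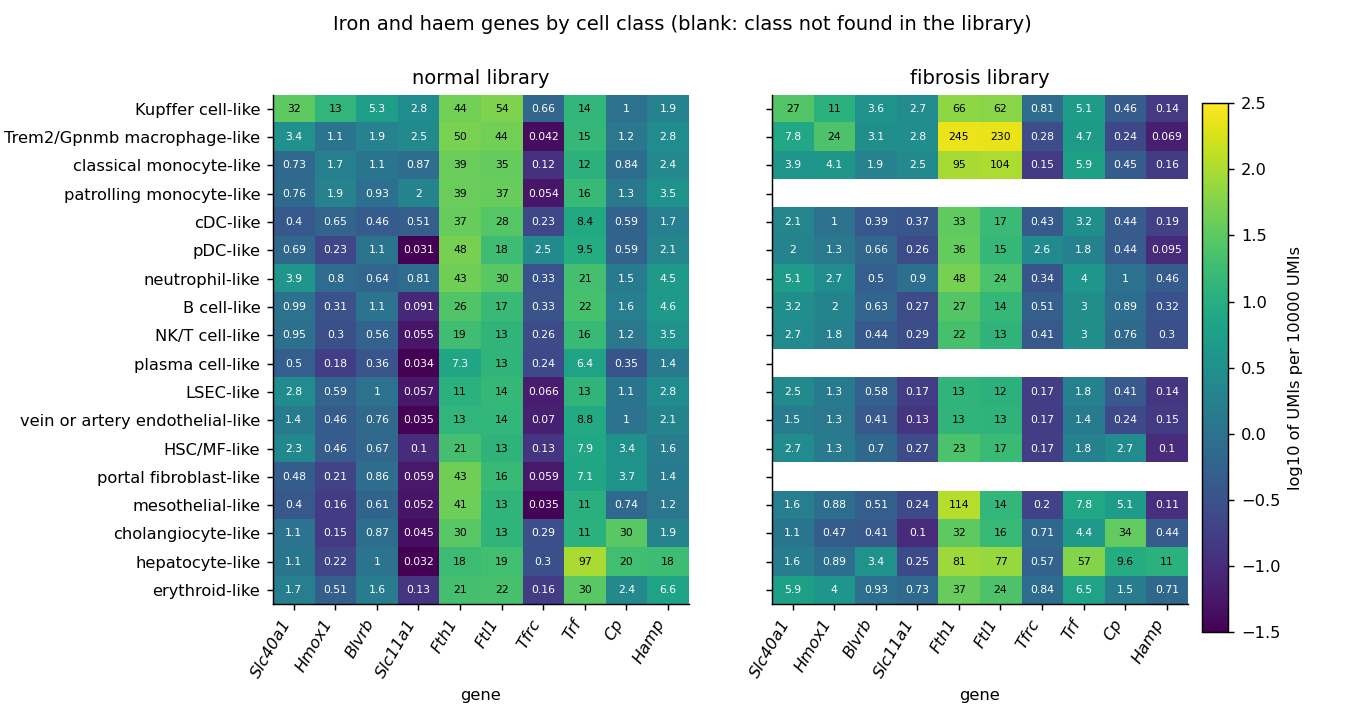
Level of each gene (columns) in each cell class (rows) of the normal (left) and fibrosis (right) libraries. Numbers are UMIs per 10000 UMIs of the class, colour is their log10, and blank rows are classes not found in that library. Slc40a1 is highest in the Kupffer-like row of both maps, and Fth1 and Ftl1 in the Trem2/Gpnmb macrophage-like row of the fibrosis map. In the normal map that row holds the 43 Mmp13-led cells.

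Ferroportin marked the Kupffer-like cells in both mice. Slc40a1 stood at 32.4 UMIs per 10000 (31.5 to 33.3) in normal Kupffer-like cells and at 27.1 (26.5 to 27.7) in fibrotic ones. The next class in order was neutrophil-like cells at 3.85 in the normal library, overlapping the Mmp13-led cells at 3.35, and Trem2/Gpnmb macrophage-like cells at 7.81 (7.54 to 8.09) in the fibrosis library. Kupffer-like cells were thus first in both orders, with no overlap with the next class. Of the Slc40a1 UMIs in kept cells, those under the mitochondrial limit, they held 39.8% in Q and 31.2% in F. All shares of a gene's UMIs below are of kept cells. With each cell thinned to 1000 UMIs, 91.2% of normal and 90.2% of fibrotic Kupffer-like cells held a Slc40a1 UMI, against 9.06% and 29.5% of lymphoid-like cells. Median depths before thinning were 6685 and 10139.5 UMIs in Kupffer-like and 3147 and 2237.5 in lymphoid-like cells, and unthinned shares were 100% and 99.6% against 26.8% and 55.2%.

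Between libraries Slc40a1 in Kupffer-like cells had a ratio of 0.837 (0.808 to 0.868), but the direction was not stable, with 1.26 on UMIs per cell and 1.25 with cells limited to 5% mitochondrial UMIs. The Timd4-high cluster stood at 29.2 (28.5 to 29.9), a ratio of 0.902 (0.869 to 0.936), and the Timd4-low cluster at 20 (18.9 to 21.1), a ratio of 0.618. In classical monocyte-like cells it stood at 0.725 UMIs per 10000 (0.493 to 1.03) in Q and 3.87 (3.62 to 4.13) in F, a ratio of 5.33 (3.73 to 7.90). The Vcan/Ace cluster stood at 2.53 (2.07 to 3.06) and the Ifit1/Ccr2 cluster at 4.15 (3.87 to 4.45). The lymphoid-like ratio was 3.01, with levels of 0.958 and 2.89 (2.72 to 3.06). The Vcan/Ace cluster therefore overlapped the lymphoid level, and the level above it came from the Ifit1/Ccr2 cluster.

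A comparison of Slc40a1 with the Kupffer markers showed where its UMIs did not come in the proportion of Kupffer RNA. Per 100 UMIs of the 4 markers, the fibrosis library had 17.7 Slc40a1 UMIs (17.2 to 18.1) in Kupffer-like cells and 19.4 (18.2 to 20.6) in lymphoid-like cells. LSEC-like cells had 33.4 (32.0 to 34.8), and Trem2/Gpnmb macrophage-like cells 40.5 (38.9 to 42.2). In the normal library the values were 24.5 in Kupffer-like, 30.8 in lymphoid-like, 116 in LSEC-like and 126 in neutrophil-like cells. Of the classes named here, lymphoid-like cells were closest to the Kupffer proportion, and LSEC-like cells held more Slc40a1 than that proportion in both libraries. In LSEC-like cells the level was 2.76 in Q and 2.48 in F, a ratio of 0.897 (0.848 to 0.948). On UMIs per cell, which raises every ratio of the class alike, it was 1.51. After thinning, 22.5% and 21.6% of LSEC-like cells held a UMI, above the lymphoid share in the normal library and below it in the fibrosis library. The 4 Kupffer markers were lower in fibrotic LSEC-like than in lymphoid-like cells, at 7.42 against 14.9 UMIs per 10000, so the share and the proportion to the markers give different orders.

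Hmox1 had its highest level in a different class in each library. Kupffer-like cells led the normal library at 13.4 UMIs per 10000 (12.9 to 14.0), ahead of patrolling monocyte-like cells at 1.91. In the fibrosis library Trem2/Gpnmb macrophage-like cells led at 23.9 (23.4 to 24.3), ahead of Kupffer-like cells at 11.5 (11.1 to 11.9), with classical monocyte-like cells at 4.10 (3.85 in the Vcan/Ace and 4.16 in the Ifit1/Ccr2 cluster). The Trem2/Gpnmb macrophage-like cells held 45.5% of the Hmox1 UMIs in F, while Kupffer-like cells held 46.1% in Q and 15% in F. In the 43 Mmp13-led cells Hmox1 stood at 1.10 (0.721 to 1.62).

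The ratio of Hmox1 between libraries in Kupffer-like cells was 0.854 (0.808 to 0.902), and it turned to 1.28 on UMIs per cell and to 1.05 under a mitochondrial limit of 5%. It was 0.966 (0.913 to 1.02) in the Timd4-high cluster, at 13 UMIs per 10000, and 0.475 (0.426 to 0.528) in the Timd4-low cluster, at 6.38. In classical monocyte-like cells it was 2.47 (1.94 to 3.19), with 2.31 (1.74 to 3.11) for the Vcan/Ace and 2.5 (1.96 to 3.24) for the Ifit1/Ccr2 cluster, and in LSEC-like cells 2.26 (2.04 to 2.51), all below the lymphoid-like ratio of 6.21. LSEC-like cells held a Hmox1 UMI in 13.8% of thinned fibrotic cells, below the 19.5% of lymphoid-like cells. Per 100 UMIs of the 4 Kupffer markers, however, fibrotic LSEC-like cells had 18 Hmox1 UMIs (17 to 19), lymphoid-like cells 12.7 (11.8 to 13.7) and Kupffer-like cells 7.47. In the normal library LSEC-like cells had 24.8 and lymphoid-like cells 9.79. Classical monocyte-like cells had 82.6 (59.4 to 114) in Q and 46.5 (43.1 to 50.2) in F. Hmox1 of LSEC-like and classical monocyte-like cells thus exceeded the lymphoid proportion to these markers in both libraries.

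The high Hmox1 of the fibrotic Trem2/Gpnmb macrophage-like cells was carried by some of them. Across its 200 cells the 10th percentile, median and 90th percentile were 1.53, 6.42 and 84.2 UMIs per 10000, against 1.88, 6.69 and 25.3 in fibrotic and 0.465, 6.23 and 31.9 in normal Kupffer-like cells. The medians lay close together, and the upper tail set the classes apart. The 20 Trem2/Gpnmb macrophage-like cells with most Hmox1 UMIs held 45.3% of them, up to 365 in 1 cell, while the deepest 20 held 20.1% of all UMIs. Hmox1 was similarly concentrated in Kupffer-like cells, where the top 10% of cells held 49.4% in Q and 44.1% in F.

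Slc40a1 was spread more evenly than Hmox1 in Kupffer-like cells, with 13.4, 31.1 and 52.6 UMIs per 10000 at the same percentiles in the normal library and 12.2, 25.8 and 42.2 in the fibrosis library. In fibrotic Trem2/Gpnmb macrophage-like cells these were 0.457, 3.79 and 19.5, so even the 90th percentile lay under the Kupffer median. Across thinned cells Slc40a1 and Hmox1 had Spearman rho of 0.19 in normal Kupffer-like, 0.18 in fibrotic Kupffer-like and 0.22 in fibrotic Trem2/Gpnmb macrophage-like cells. These weak values, over sparse counts from cells of 1 library each, are a description only.

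**Figure D2:**
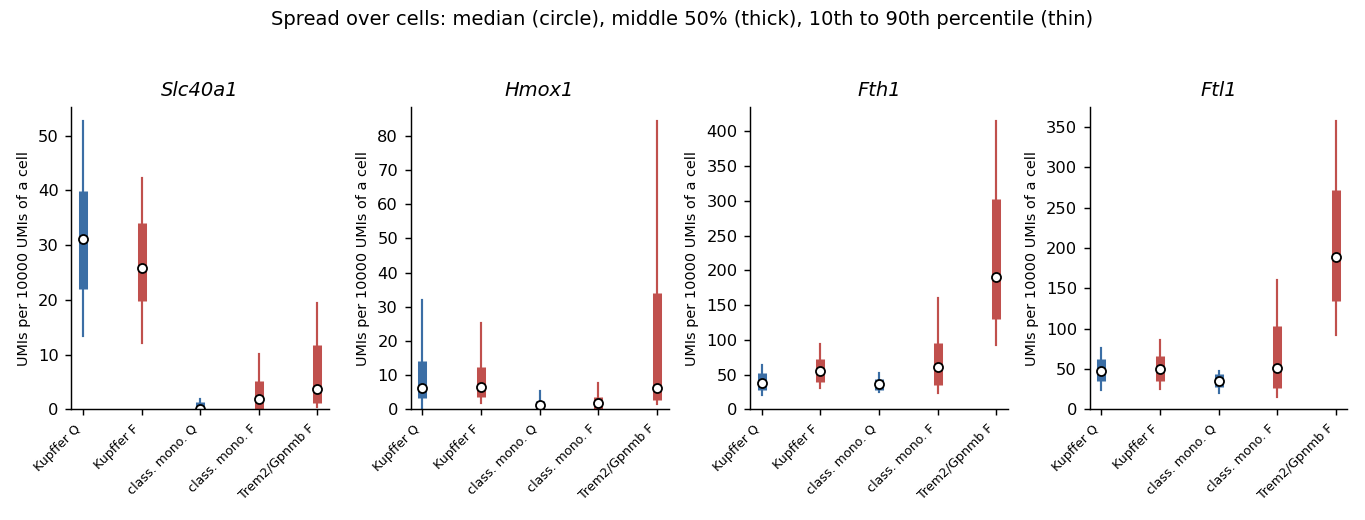
Spread over single cells of Slc40a1, Hmox1, Fth1 and Ftl1, as UMIs per 10000 UMIs of the cell (linear axes), in Kupffer-like, classical monocyte-like and Trem2/Gpnmb macrophage-like cells of the normal (Q, blue) and fibrosis (F, red) libraries. The fibrotic classical monocyte-like bar joins the Vcan/Ace and Ifit1/Ccr2 clusters. Circles are medians, thick bars the middle 50% and thin bars the 10th to 90th percentile. Hmox1 medians of 6.23, 6.69 and 6.42 sit together while the fibrotic Trem2/Gpnmb bar reaches 84.2, and the ferritin bars of that class lie above the others.

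Blvrb, a reductase of flavins and biliverdin beta, was also first in Kupffer-like cells of the normal library. It stood there at 5.28 UMIs per 10000 (4.93 to 5.65), against 1.87 (1.36 to 2.51) in the Mmp13-led cells and 1.01 in LSEC-like cells. In the fibrosis library Kupffer-like cells at 3.57 (3.35 to 3.80) overlapped hepatocyte-like cells at 3.41 (3.06 to 3.80), with Trem2/Gpnmb macrophage-like cells next at 3.10 (2.93 to 3.28). The Kupffer-like ratio was 0.676 (0.616 to 0.742), beside 0.724 in lymphoid-like cells, and was 1.01 on UMIs per cell. In LSEC-like cells the ratio was 0.572 (0.516 to 0.634). In classical monocyte-like cells it was 1.66, from 1.15 to 1.91 UMIs per 10000, but the Vcan/Ace cluster stood at 0.597 and the Ifit1/Ccr2 cluster at 2.18, on either side of the normal level.

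Slc11a1, the phagosomal metal transporter, followed phagocytes as a whole. Kupffer-like cells at 2.80 UMIs per 10000 overlapped the Mmp13-led cells at 2.55 in the normal library. In the fibrosis library Kupffer-like cells at 2.67 overlapped Trem2/Gpnmb macrophage-like cells at 2.84. Classical monocyte-like cells stood at 0.866 (0.609 to 1.19) in Q and at 2.51 (2.31 to 2.72) in F, a ratio of 2.90. The Ifit1/Ccr2 cluster stood at 2.65, near the macrophage classes of its library, and the Vcan/Ace cluster at 1.84. LSEC-like cells were at 0.0574 and 0.17, at or under the lymphoid-like levels of 0.0661 and 0.282. The Kupffer-like ratio was 0.953 (0.846 to 1.07).

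**Figure D3:**
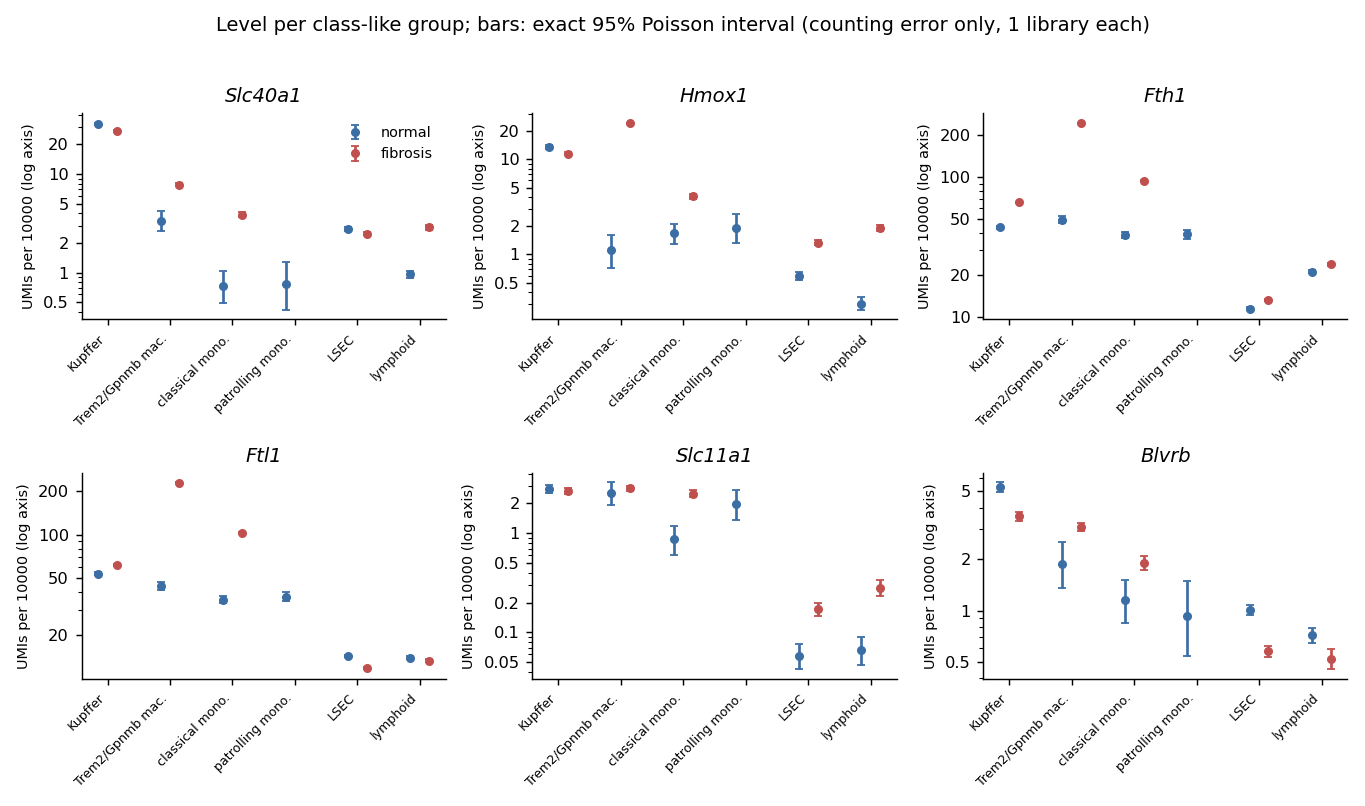
Levels of Slc40a1, Hmox1, Fth1, Ftl1, Slc11a1 and Blvrb as UMIs per 10000 (log axes) in Kupffer-like, Trem2/Gpnmb macrophage-like, classical and patrolling monocyte-like, LSEC-like and lymphoid-like cells of the normal (blue) and fibrosis (red) libraries. Bars are exact 95% Poisson intervals for 1 library each. The ferritin chains reach 245 and 230 in fibrotic Trem2/Gpnmb macrophage-like cells, while Slc11a1 lies between 2.51 and 2.84 in the 3 fibrotic phagocyte classes. The normal Trem2/Gpnmb points are the Mmp13-led cells, and the fibrotic classical points join a cluster at 1.84 for Slc11a1 with one at 2.65.

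Both ferritin chains were most abundant in the Trem2/Gpnmb macrophage-like cells of the fibrosis library. Fth1 stood there at 245 UMIs per 10000 (243 to 246) and Ftl1 at 230 (229 to 232), against 49.7 (46.9 to 52.7) and 43.9 (41.3 to 46.7) in the 43 Mmp13-led cells of the normal library. The 200 fibrotic cells held 35.3% of the Fth1 and 41.1% of the Ftl1 UMIs in F. Every Trem2/Gpnmb macrophage-like cell of the fibrosis library kept a UMI of each chain after thinning, which was also so for most lymphoid-like cells (90.9% and 78.6%), since ferritin is made by nearly all cells.

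In Kupffer-like cells Fth1 stood at 43.8 UMIs per 10000 in Q and 66.2 in F, a ratio of 1.51 (1.47 to 1.55), beside 1.13 in lymphoid-like cells. Ftl1 stood at 53.6 and 62.1, a ratio of 1.16 (1.13 to 1.19) beside 0.952, which turned to 0.927 under a mitochondrial limit of 5%. Fth1 stood at 65.6 in the Timd4-high and 67.9 in the Timd4-low cluster, and Ftl1 at 56.7 and 80.6. In classical monocyte-like cells Fth1 went from 38.5 to 94.8 and Ftl1 from 35.5 to 104, ratios of 2.46 and 2.92. The clusters of that class differed: Fth1 stood at 43.1 (41.2 to 45.2) in the Vcan/Ace cluster and 106 (104 to 107) in the Ifit1/Ccr2 cluster, and Ftl1 at 30.4 (28.8 to 32.1) and 119 (118 to 121). Over the normal class the Vcan/Ace cluster had ratios of 1.12 (1.05 to 1.2) and 0.857 (0.795 to 0.924), so the class difference came from the 193 cells whose markers go against its name. LSEC-like cells stood at 11.5 and 13.2 for Fth1 and at 14.5 and 11.8 for Ftl1.

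The ferritin difference held across the cells of the class. The 10th percentile, median and 90th percentile of Fth1 were 92.9, 191 and 415 UMIs per 10000 in fibrotic Trem2/Gpnmb macrophage-like cells and 30.5, 55.7 and 94.2 in fibrotic Kupffer-like cells. For Ftl1 they were 91.9, 188 and 358 against 25.5, 49.7 and 86.2. The lower tail of the former class lay near the upper tail of the latter for both chains. Fth1 and Ftl1 had Spearman rho of 0.61 over 200 thinned Trem2/Gpnmb macrophage-like cells, against 0.18 over 264 fibrotic and 0.25 over 226 normal Kupffer-like cells. Hmox1 and Fth1 had rho of 0.40 in the former and -0.06 in fibrotic Kupffer-like cells. Counts per cell of these genes differ between the classes, and thinning was to 1000 UMIs in each, so the values are not compared by a test.

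The balance of the chains differed between classes. Fth1 UMIs per Ftl1 UMI were 0.818 (0.792 to 0.844) in normal and 1.06 (1.04 to 1.09) in fibrotic Kupffer-like cells, with 1.06 in fibrotic Trem2/Gpnmb macrophage-like and 1.13 in the Mmp13-led cells. The ratio was also higher in F in LSEC-like (0.795 and 1.12), lymphoid-like (1.51 and 1.79) and neutrophil-like cells (1.43 and 2.03). It was lower in F in pDC-like cells (plasmacytoid dendritic), at 2.67 and 2.46, and in cholangiocyte-like cells, at 2.29 and 2.03. The same held for HSC/MF-like cells (hepatic stellate cells and myofibroblasts), at 1.62 and 1.35, and classical monocyte-like cells, at 1.09 and 0.915. In normal plasma cell-like cells it was 0.557. In Q portal fibroblast-like cells stood at 2.72 (2.46 to 3.01). Mesothelial-like cells had the highest value in each library, 3.10 (2.86 to 3.37, an interval that met the former) and 8.22 (7.88 to 8.58). In them Fth1 stood at 40.8 UMIs per 10000 in Q and 114 in F, with Ftl1 near 13 and 14. Capture can differ between the transcripts, so only the change of the ratio between classes is read. Reads of the copy Ftl1-ps1, which had 1236 UMIs in Q and 2822 in F, may in part belong to Ftl1, so Ftl1 levels are uncertain to that extent.

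Tfrc, the uptake receptor, had its highest level in pDC-like cells of both libraries, at 2.55 UMIs per 10000 (2.31 to 2.81) and 2.62 (2.36 to 2.91). These cells held 32.6% of the Tfrc UMIs in Q and 18.3% in F. Kupffer-like cells were next in the normal library at 0.663 (0.542 to 0.803) and stood at 0.811 (0.708 to 0.924) in F, a ratio of 1.22 (0.966 to 1.56) beside 1.58 in lymphoid-like cells, with the Timd4-high cluster at 0.934 (0.809 to 1.07) and the Timd4-low cluster at 0.395 (0.255 to 0.583). Trem2/Gpnmb macrophage-like cells stood at 0.279 (0.230 to 0.336) in the fibrosis library, and the Mmp13-led cells held 1 Tfrc UMI in all. Tfrc was thus lower in the class with most ferritin UMIs than in Kupffer-like cells of the same library. In LSEC-like cells it was under 0.2 in both libraries, at 0.0659 and 0.17.

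Within the fibrosis library, where both classes share preparation and sequencing, Trem2/Gpnmb macrophage-like cells were set against Kupffer-like cells directly. Of 9 members tested, 5 were past 2-fold, 3 higher and 2 lower, against 15.2% of 7012 genes (5.08% higher and 10.2% lower). Higher were Hmox1 at 2.08 (2 to 2.17), Fth1 at 3.70 (3.64 to 3.76) and Ftl1 at 3.71 (3.65 to 3.77). Lower were Slc40a1 at 0.288 (0.276 to 0.301) and Tfrc at 0.344 (0.272 to 0.433). Against the Timd4-high cluster alone Hmox1 was at 1.84 (1.76 to 1.92), within 2-fold, and against the Timd4-low cluster Tfrc was at 0.707 (0.455 to 1.14). Both ferritin chains were higher and Slc40a1 lower past 2-fold against either cluster. Slc11a1 at 1.07 (0.971 to 1.17), Blvrb at 0.869, Trf at 0.926 and Cp at 0.510 stayed within 2-fold of the whole class, though Cp was at 0.498 (0.373 to 0.664) against the Timd4-high cluster, and Hamp was under the limit of 0.2 UMIs per 10000.

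When all monocyte/macrophage-like cells of the fibrosis library were taken as the other side, 4 of 9 members tested were past 2-fold, 2 in each direction, against 10.7% of all genes (6.22% higher and 4.5% lower). Kupffer-like cells had 4.27 times (4.11 to 4.44) their Slc40a1 and 3.48 times (2.82 to 4.31) their Tfrc, and 0.350 times their Fth1 and 0.339 times their Ftl1. Hmox1 was at 0.695 against the whole class but at 2.80 against classical monocyte-like cells alone (2.98 for the Vcan/Ace and 2.76 for the Ifit1/Ccr2 cluster), so its direction depended on which macrophages were counted. Against the Vcan/Ace cluster alone 4 of 9 were past 2-fold, all higher in Kupffer-like cells, against 24.5% of genes, with Fth1 at 1.53 and Ftl1 at 2.04. Within the normal library Kupffer-like cells had 7 of 10 members past 2-fold over LSEC-like cells, all higher, where 33.3% of genes passed, 13.3% higher and 20% lower. These were Slc11a1 at 48.8 (36.0 to 67.3), Hmox1 at 22.7 (20.6 to 25.1), Slc40a1 at 11.7 (11.2 to 12.3), Tfrc at 10.1, Blvrb at 5.22, Fth1 at 3.81 and Ftl1 at 3.71. The other 3, Hamp at 0.676, Cp at 0.954 and Trf at 1.07, had their highest levels in hepatocyte-like (Hamp and Trf) or cholangiocyte-like (Cp) cells.

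Between libraries Trf, Cp and Hamp were lower in the fibrosis library in Kupffer-like, monocyte/macrophage-like and LSEC-like cells, while the other members differed by class. In Kupffer-like cells 3 of 10 members were past 2-fold, Hamp, Trf and Cp, all lower in the fibrosis library, where 9.44% of 7192 genes were past 2-fold (4.38% higher and 5.06% lower). The median log2 ratio was -0.24 for the members and 0.10 for all genes. On UMIs per cell, which raises every ratio of this class alike, the split was 1 higher and 1 lower, with Fth1 at 2.26. These counts are not set against the shares above. In monocyte/macrophage-like cells 9 of 10 were past 2-fold, 6 higher and 3 lower, against 20.5% of 7407 genes (8.25% higher and 12.2% lower), with a median log2 ratio of 1.26 beside -0.09 for all genes. Higher were Hmox1 at 10.6 (8.92 to 12.7), Ftl1 at 4.79, Fth1 at 4.52 and Slc40a1 at 4.33 (3.62 to 5.22). Tfrc at 2.81 (1.33 to 7.12) and Blvrb at 2.05 (1.69 to 2.5) were also higher, and Trf, Cp and Hamp were lower. The Tfrc ratio rested on 150 UMIs in F and 7 in Q, and the lymphoid-like Tfrc ratio was 1.58. In classical monocyte-like cells alone the Tfrc ratio was 1.32. There the Vcan/Ace cluster had 3.47 (1.23 to 12) and the Ifit1/Ccr2 cluster 0.865 (0.315 to 2.95). Under a mitochondrial limit of 5% Slc40a1 was at 12.9, Hmox1 at 6.76 and Fth1 at 3.01, and on UMIs per cell Slc40a1 was at 10.1 and Hmox1 at 24.6. This class held 200 Trem2/Gpnmb macrophage-like and 193 Ifit1/Ccr2 cluster cells of 501 in F, and 43 Mmp13-led cells of 153 in Q, so its counts and ratios compare cells of different makeup. In classical monocyte-like cells alone 6 of 9 were past 2-fold, against 24.2% of genes (13.2% higher and 11% lower). With the Ifit1/Ccr2 cluster also left out 6 of 10 were past 2-fold, 4 higher and 2 lower, against 28.8% of genes, with Fth1, Ftl1, Cp and Blvrb within 2-fold. All of these 6 but Tfrc were also past 2-fold, in the same direction, in lymphoid-like cells. Over the normal classical and patrolling cells together, the Vcan/Ace cluster had Slc11a1 within 2-fold as well, at 1.54 (1.1 to 2.15), and Fth1 at 1.11. On UMIs per cell, which raises every ratio of the class alike, the monocyte/macrophage split was 7 higher and 1 lower. It is therefore not set against the shares of all genes above.

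In LSEC-like cells 4 of 8 members were past 2-fold, against 10.1% of 7704 genes (4.21% higher and 5.89% lower), with Hmox1 higher and Trf, Cp and Hamp lower. The median log2 ratio of the members was -0.55, beside 0.10 for all genes. In lymphoid-like cells, the background (median log2 ratio of all genes 0.16), 5 of 10 were past 2-fold against 15.9% of genes (8.91% higher and 6.97% lower), namely Hmox1 at 6.21, Slc11a1 at 4.26, Slc40a1 at 3.01, Trf at 0.17 and Hamp at 0.0799. The members past 2-fold in LSEC-like cells, apart from Cp, were therefore also past it, in the same direction, in cells that should not make them.

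**Figure D4:**
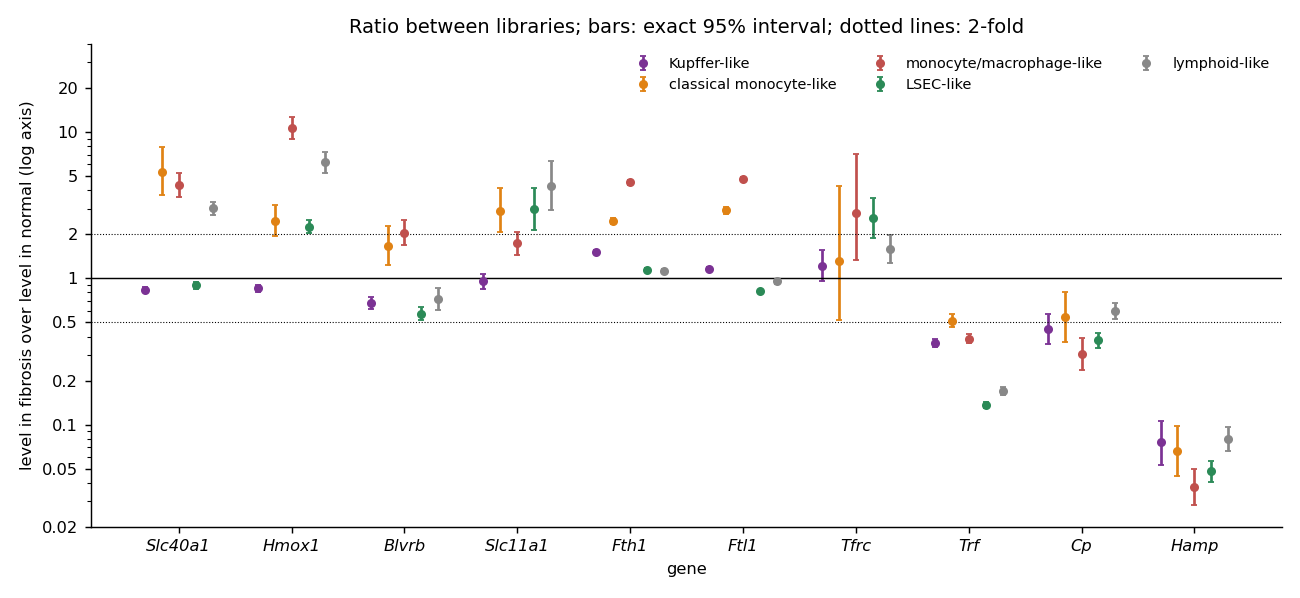
Ratio of the level in the fibrosis library to that in the normal library (log axis) for each gene in Kupffer-like, classical monocyte-like, all monocyte/macrophage-like, LSEC-like and lymphoid-like cells. The monocyte/macrophage-like classes differ in makeup between libraries. Bars are exact 95% intervals on counting error, the solid line is no difference and the dotted lines are 2-fold. Fth1 and Ftl1 stand at 4.52 and 4.79 in monocyte/macrophage-like cells with lymphoid-like ratios of 1.13 and 0.952, whereas Trf and Hamp lie under 1 in every class drawn.

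The plasma proteins were read first in the cells that make them. Trf stood at 96.7 UMIs per 10000 (95 to 98.5) in normal and 57.3 (55.8 to 58.8) in fibrotic hepatocyte-like cells, and Hamp at 18.2 (17.5 to 19) and 11.5 (10.8 to 12.2). Per 100 Alb UMIs, Trf in these cells went the other way, at 10.1 (9.93 to 10.3) in Q and 25.3 (24.6 to 26.1) in F. Hepatocyte-like cells were first in the order for both genes in both libraries. Their ratios were 0.592 for Trf and 0.630 for Hamp, but over the alternatives run these went from 0.292 (mitochondrial limit of 5%) to 0.906 (no limit) and from 0.344 (centred on the median of all genes) to 0.839, and in the fibrosis library 3 cells held 37.2% of the class's Trf and 37.3% of its Hamp UMIs. Cp was first in cholangiocyte-like cells, the bile duct cells, at 30.1 UMIs per 10000 in Q and 34.5 in F, and they held 57.8% and 49.0% of its UMIs. Hepatocyte-like cells followed at 19.8 and 9.62, then portal fibroblast-like cells at 3.74 and HSC/MF-like cells (hepatic stellate cells and myofibroblasts) at 3.44 in the normal library. Mesothelial-like cells stood at 0.744 for Cp in Q and 5.09 in F, and the lymphoid-like ratio of Cp was 0.6. Hamp2, a near copy of Hamp, had 2171 and 221 UMIs, and reads may have been split between them.

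Outside hepatocyte-like cells, Hamp and Trf were lower in the fibrosis library in Kupffer-like, LSEC-like and lymphoid-like cells. Hamp stood at 1.89 UMIs per 10000 in normal and 0.144 in fibrotic Kupffer-like cells, a ratio of 0.0761, beside 0.0799 in lymphoid-like and 0.0481 in LSEC-like cells. Per 100 Alb UMIs it was 3.62 in Kupffer-like, 3.79 in lymphoid-like and 3.66 in LSEC-like cells of the normal library, with overlapping intervals. In the fibrosis library these were 2.49, 2.83 and 2.29, again overlapping, so Hamp intervals met across these 3 classes within a library. Hepatocyte-like cells themselves had 1.9 and 5.07, so that shared proportion was not theirs. Cp per 100 Alb UMIs was 1.33 in lymphoid-like and 9.56 in HSC/MF-like cells of the normal library, and 7.46 and 85.8 in the fibrosis library.

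Transferrin did not keep the same proportion. Trf stood at 14.1 UMIs per 10000 in normal and 5.09 in fibrotic Kupffer-like cells, a ratio of 0.362, against 0.17 in lymphoid-like and 0.136 in LSEC-like cells. Per 100 Alb UMIs Trf was 17.4 (17.1 to 17.8) in lymphoid-like, 17.2 (16.9 to 17.6) in LSEC-like and 26.9 (25.7 to 28.2) in Kupffer-like cells of the normal library. In the fibrosis library it was 27.7 (26.0 to 29.5), 30.4 (28.9 to 31.9) and 87.9 (81.8 to 94.4), and it was 93.6 in classical monocyte-like (37.5 in the Vcan/Ace and 113 in the Ifit1/Ccr2 cluster), 135 (126 to 145) in Trem2/Gpnmb macrophage-like and 249 (225 to 275) in mesothelial-like cells. Kupffer-like and mesothelial-like cells of both libraries, and the other phagocyte classes named here, thus held more Trf for their Alb than lymphoid-like cells did, with intervals that did not meet. After thinning, a Trf UMI was seen in 38.6% of fibrotic Kupffer-like and 30.2% of lymphoid-like cells, and in 83.2% and 81.9% in the normal library.

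**Figure D5:**
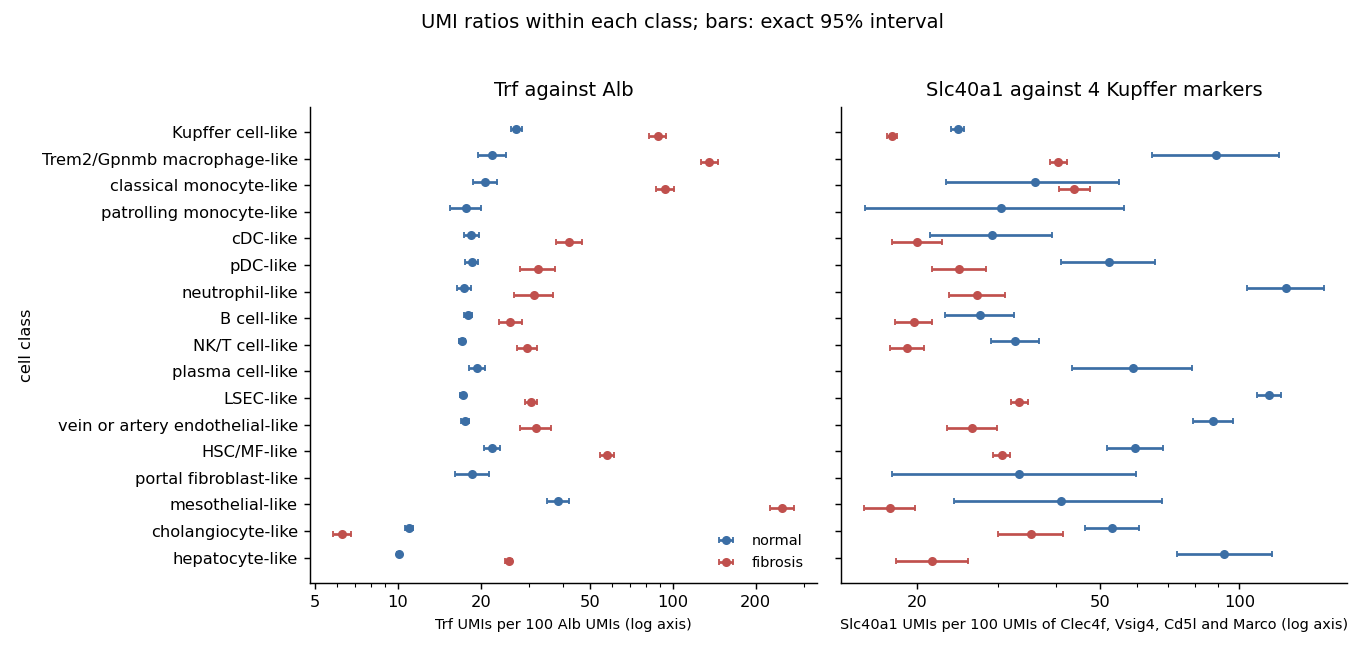
Left, Trf UMIs per 100 Alb UMIs, and right, Slc40a1 UMIs per 100 UMIs of Clec4f, Vsig4, Cd5l and Marco (log axes), in each cell class of the normal (blue) and fibrosis (red) libraries. Bars are exact 95% intervals. Trf in lymphoid-like classes and LSEC-like cells sits near 17 in the normal library, with mesothelial-like cells apart in both, and fibrotic Kupffer-like, classical monocyte-like and Trem2/Gpnmb macrophage-like cells lie between 87.9 and 135, above neutrophil-like cells at 31.2 and cDC-like cells at 42.

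The hepatocyte-like and erythroid-like comparisons rest on groups that differ in depth and in their defining markers between libraries. In hepatocyte-like cells 6 of 10 members were past 2-fold, 5 higher and 1 lower, but so were 51.8% of 6848 genes (44.7% higher and 7.13% lower), and the median log2 ratio of all genes was 0.87. Fth1 stood at 17.7 UMIs per 10000 in Q and 80.8 in F and Ftl1 at 19.4 and 77.1, ratios of 4.56 and 3.97. With cells limited to 5% mitochondrial UMIs these were 1.66 and 1.22, and the Blvrb ratio of 3.27 became 0.352. The 34 hepatocyte markers summed to 2601 UMIs per 10000 in Q and 973 in F, and the part of this in the member ratios was not tested.

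In erythroid-like cells of the normal library Slc40a1 stood at 1.65 UMIs per 10000, Tfrc at 0.158 (0.113 to 0.215) and Fth1 at 20.7, and Trf at 30.2, with Alb at 177. These values pool a pair of unlike clusters. In 866 cells, with haemoglobin at 1450 and Alb at 227 and with hepatocyte genes such as Rgn among the leading genes, Slc40a1 stood at 2.09, Tfrc at 0.237 (0.169 to 0.325) and Fth1 at 25.3. In the other 259, with haemoglobin at 6511 and Alb at 84.8, Slc40a1 stood at 0.848 and Fth1 at 12.2, and Tfrc had 1 UMI in all. The haemoglobin-led cells of the fibrosis library had Slc40a1 at 5.87, Tfrc at 0.835 (0.656 to 1.05) and Fth1 at 37.2, with the 4 Kupffer markers at 35.7. Slc40a1 was 16.4 (15 to 18) per 100 of those marker UMIs, near the 17.7 of Kupffer-like cells. Between the groups 6 of 10 members were past 2-fold, 4 higher and 2 lower, against 65.8% of 8244 genes (58% higher and 7.85% lower), with a median log2 ratio of 1.15. Centred on that median the split was 3 higher and 5 lower, and with haemoglobin and mitochondrial UMIs left out of the total, or on UMIs per cell, it was 4 and 4. Each of these scalings moves all genes alike, so these splits are not set against the share of all genes above. In the main setting the share of members past 2-fold lay near that of all genes.

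The wider iron and haem pathway was described from a list of 76 genes, of which 72 were measured. In Kupffer-like cells 49 could be tested, and 2 were past 2-fold higher and 6 lower in the fibrosis library, where 4.38% of all genes were higher and 5.06% lower. Cd163, the scavenger receptor for haemoglobin bound to haptoglobin, stood at 7.20 UMIs per 10000 in Q and 3.27 in F, a ratio of 0.454 (0.416 to 0.496) beside 1.34 in lymphoid-like cells. It stood at 4.18 in the Timd4-high cluster, within 2-fold of the normal level, and at 0.189 in the Timd4-low cluster. Gdf15, a stress-induced cytokine, stood at 0.272 and 1.96, a ratio of 7.23 (5.30 to 10.1) beside 3.30. The other higher gene was the metalloreductase Steap4, and the other lower genes were Hp, Hpx, Pgrmc1, Hamp2 and Alas2, of which Hp, Hpx and Hamp2 are hepatocyte transcripts and Alas2 is the erythroid enzyme of haem synthesis. None of the 7 genes of haem breakdown and its control was past 2-fold.

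In monocyte/macrophage-like cells 50 pathway genes could be tested, with 11 higher and 7 lower, against 8.25% of all genes higher and 12.2% lower. The class is mostly Trem2/Gpnmb macrophage-like and Ifit1/Ccr2 cluster cells in F and neither in Q. Of haem breakdown and its control, 4 of 7 were higher: Hmox2, Blvra, Spic and Por. In classical monocyte-like cells alone only Spic of these 7 was past 2-fold, with Por at 1.49 (1 to 2.29), and 10 of 46 pathway genes were higher and 6 lower, against 13.2% and 11% of all genes. Por, the reductase that supplies haem oxygenase with electrons, stood at 0.602 and 2.55, a ratio of 4.23 (3.20 to 5.70) beside 1.68 in lymphoid-like cells. Slc48a1, the haem transporter of the phagolysosome, stood at 0.484 and 2.25, a ratio of 4.64 (3.40 to 6.49) beside 1.62. Ncoa4, the receptor that takes ferritin to the lysosome, stood at 0.579 and 1.90, a ratio of 3.28 (2.47 to 4.46) beside 1.22, and Gdf15 at 0.236 and 3.35. Spic, a transcription factor of iron-recycling macrophages, stood at 0.213 and 0.675, a ratio of 3.17 beside 10.2 in lymphoid-like cells. Steap3, Steap4, Lrp1 and Slco2b1 were also higher, and Hp, Hpx, Pgrmc1, Tmprss6, Hamp2, Alas1 and Slc25a38 were lower.

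Within the fibrosis library 48 pathway genes were tested between Trem2/Gpnmb macrophage-like and Kupffer-like cells, with 4 higher and 8 lower, against 5.08% of all genes higher and 10.2% lower. Por stood at 3.48 against 1.30, a ratio of 2.67 (2.38 to 3.01), and Steap3, Slco2b1 and Gdf15 were also higher. Cd163 stood at 0.0519 against 3.27, and Spic at 0.669 against 1.89, a ratio of 0.354 (0.304 to 0.410). Hfe, Bmpr1a, Smad1, Smad5, Smad7 and Il6ra, listed under hepcidin control, made up the other lower genes. In LSEC-like cells 3 of 50 were higher and 8 lower between libraries, against 4.21% and 5.89% of all genes. Bmp2, an endothelial signal to hepatocytes for hepcidin, stood there at 20.9 and 17.4 UMIs per 10000 and Bmp6 at 1.04 and 0.720, within 2-fold.

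Across 29 class-by-library points of at least 50 cells, the genes whose log2 level was most like each member were found among 8520 genes. The points share libraries and free RNA, so Pearson r is a description. Slc40a1 was most like Il18bp, Vsig4 and Cd5l, with r of 0.92, 0.91 and 0.90. Hmox1 was most like Slc7a8, C1qb and C1qa, with r near 0.95. Slc11a1 was most like Fcgr3 (0.98), Clec4a2 and Wfdc17, and Ftl1 most like its copy Ftl1-ps1 (0.94), Creg1 and Abcd2. Fth1 had no gene over 0.81, with Pgam1, Aprt and Cstb first. Trf was most like Pemt, Asl and Scp2, Hamp most like Tat, Cdo1 and Rbp4 (0.99), and Cp most like Clu (0.93), Pacsin3 and Zfhx4. Tfrc was most like Atp2a1, Vps37a and Havcr1, and Blvrb most like Idh1, Dhrs1 and Cox5a. Among the members themselves, Hamp and Trf had r of 0.91, Hmox1 and Slc11a1 0.91, Slc40a1 and Hmox1 0.84, and Fth1 and Ftl1 0.77.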

How the data were processed

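The authors aligned the reads to mm10 with Cell Ranger 3.0.1 and deposited raw UMI counts per gene and cell for each library, with no normalization. The study's methods state that doublets were removed with Scrublet, and Scrublet called 1 further cell in each library. Cells under 10% mitochondrial UMIs and over 200 genes were kept. Each library was clustered alone (scanpy 1.11.5, 2000 variable genes, 10 principal components, 20 neighbours, Leiden resolution 0.8), with members and pathway genes held out. Clusters were named by marker lists when at least 3 markers were raised 2-fold and that class led the top 10 genes by fold at 2 or more UMIs per 10000. Clusters that could not be named, 649 normal cells (8.69%) and 360 fibrosis cells (5.87%), were left out of the classes. This floor, first set at 0.5, and the second clustering of phagocytes were chosen after seeing the data. The members and all lists were chosen with earlier results of these data known.

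Counts were summed per class and divided by all UMIs of the class. Poisson, conditional binomial (ratio) and Clopper-Pearson (share) intervals were exact. With 1 library per group no test was run. A gene counted as past 2-fold when its ratio was at least 2 or at most 0.5 and it had 0.2 or more UMIs per 10000 in either group. Shares of cells holding a UMI come from cells of at least 1000 UMIs, each drawn down at random to 1000. Named pathway genes are those past 2-fold, and Bmp2, Bmp6, Ltf and Lcn2 were added after their values were seen. For likeness, the 3 genes with the highest Pearson r of log2(UMIs per 10000 + 0.1) were named. The ratio code was tested on simulated data. Analysis ran in Python 3.11.15 with numpy 2.4.6, scipy 1.17.1, pandas 2.3.3 and igraph 0.11.9. Alternatives were 12 planned changes of filter, clustering, scaling and floor, and 5 chosen after seeing the data.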

Additional observations from a re-analysis of the deposited data

Results flagged for a closer look

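For 4 genes the ratio between libraries lay on opposite sides of 1 in a pair of classes, with neither counting interval reaching 1. The difference between the classes was not tested, since each library is 1 mouse. Slc40a1 had a ratio of 0.837 in Kupffer-like and 4.33 in monocyte/macrophage-like cells, and Hmox1 0.854 and 10.6. The monocyte/macrophage-like class differs in makeup between the libraries, and in the Vcan/Ace cluster of F over normal classical monocyte-like cells these ratios were 3.49 and 2.31. The Slc40a1 level of that cluster overlapped the lymphoid-like level of F, and its Hmox1 ratio lay below the lymphoid-like ratio. On UMIs per cell, which raises every ratio of a class here alike, both Kupffer-like ratios were above 1, at 1.26 and 1.28. In the Timd4-high Kupffer-like cluster alone they were 0.902 (0.869 to 0.936) and 0.966 (0.913 to 1.02), so the Hmox1 interval there reached 1. Ftl1 had 0.817 in LSEC-like cells and 4.79 in monocyte/macrophage-like cells, where the Vcan/Ace cluster had 0.857. On UMIs per cell, again a shift of all genes alike, the LSEC-like ratio of Ftl1 was 1.37. Blvrb had 0.572 in LSEC-like and 3.27 in hepatocyte-like cells, the latter 0.352 when cells were limited to 5% mitochondrial UMIs.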

How the results depend on the processing

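No paired analysis was possible because each group is 1 library and no result comes from a test. Of 70 member ratios, 39 were past 2-fold, and 21 of these under every alternative run. Some alternatives, such as UMIs per cell and centring, move all ratios of a comparison alike, and the turns they gave are counted with the rest. Of 990 ratios under alternatives, 56 lay on the other side of 1 from the main ratio, 51 of them for ratios within 2-fold. The other 5 were Blvrb in hepatocyte-like cells, at 0.352 with a mitochondrial limit of 5% (the cause was not tested), and 4 where the monocyte/macrophage-like class was cut to the Vcan/Ace cluster of F and, between libraries, the classical monocyte-like cells of Q. These were, between libraries, Ftl1 at 0.857 and Blvrb at 0.521, and, for Kupffer-like over these cells in F, Fth1 at 1.53 and Ftl1 at 2.04. Counts of members past 2-fold stayed within 1.5 times the main count under every alternative run: 2 to 4 in Kupffer-like (3 without the Timd4-low cluster), 6 to 10 in monocyte/macrophage-like (6 in classical monocyte-like cells alone, with or without the Ifit1/Ccr2 cluster), 3 to 6 in LSEC-like, 6 to 8 in erythroid-like, 5 to 8 in hepatocyte-like cells, 3 to 4 between Kupffer-like and monocyte/macrophage-like cells, and 7 between Kupffer-like and LSEC-like cells. A like count does not mean that the same members passed. In the Vcan/Ace cut of the monocyte/macrophage-like class, Fth1, Ftl1, Cp and Blvrb fell within 2-fold and Slc11a1 passed it. The hepatocyte split of 5 higher and 1 lower became 4 and 3 when centred on the median of all genes, and 5 and 3 on UMIs per cell. Both scalings move all genes alike, so these splits are not set against the shares of all genes in the main setting. Below about 0.2 UMIs per 10000, depth limits Tfrc and Slc11a1 in LSEC-like cells.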

Other observations

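A cluster of 61 cycling cells of the fibrosis library, which no class marker list named, held Fth1 at 106 UMIs per 10000, Ftl1 at 118, Slc40a1 at 14.6 and Hmox1 at 8.37. Its Slc40a1 level lay between those of Trem2/Gpnmb macrophage-like (7.81) and Kupffer-like cells (27.1) of the same library. Iron-binding proteins of granules were found in neutrophil-like cells, with Ltf (lactoferrin) at 6.49 UMIs per 10000 in library Q and 10.1 in library F, and Lcn2 (lipocalin 2) at 10.49 and 9.85. Alas2, the erythroid enzyme of haem synthesis, stood at 8.49 in erythroid-like cells of the normal library (4.18 in the cluster of 866 and 16.4 in that of 259 cells) and at 0.452 in the haemoglobin-led cells of the fibrosis library.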
